A study of Mus musculus with 12 samples.

Results

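Costimulatory ligands are the cell-surface proteins with which an antigen-presenting cell supplies a T cell with signals beyond the recognised antigen. To describe how their transcripts responded to 3 stimuli in CD8 T cell preparations, the genes Cd40, Cd80, Cd86, Cd83, Icosl, Tnfsf4, Tnfsf9 and Icam1 were taken by symbol, with a rule that sets no threshold on measured values. All 8 genes were among the 20778 symbols of the count table, and all 8 passed the expression filter that left 12122 genes for testing. The RNA came from CD8 T cells of C57BL/6 mice, isolated from spleen with magnetic beads and cultured for 6 hours. The mice were 6 weeks old by the labels and older by the study's methods, so their age is uncertain. Cells were left untreated (Naïve) or were given an antibody to the CD3 signalling part of the T cell receptor (αCD3, 1 µg/ml), interferon gamma (IFNγ, 70 ng/ml) or lipopolysaccharide (LPS, 1 µg/ml), a bacterial wall component sensed by Toll-like receptor 4. A second field of the labels gives the αCD3 and LPS doses in mg/ml, so that unit is uncertain. Each of the 4 groups had 3 mRNA libraries. The labels do not say whether the 3 came from separate mice, so p-values measure the spread between these libraries, which may be technical.

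The B7 proteins CD80 and CD86 bind CD28 and CTLA-4 on the T cell, and ICOS ligand (Icosl) binds ICOS. OX40 ligand (Tnfsf4) and 4-1BB ligand (Tnfsf9) are members of the tumor necrosis factor (TNF) family, whereas CD40 is a TNF receptor family member through which T cells carrying CD40 ligand activate B cells, dendritic cells and macrophages. ICAM-1 is the adhesion ligand of the integrin LFA-1, and CD83 is an immunoglobulin family protein of mature dendritic cells and activated lymphocytes. In the spleen these proteins are best known from B cells, dendritic cells and macrophages, and several of them are also made by T cells after activation.

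The 8 genes did not move as a block, and each treatment had its own pattern. LPS had its largest effect on Cd40, which was 5.21-fold higher than in Naïve, and on Icam1, which was 3.04-fold higher. IFNγ raised Cd86, Icosl and Icam1 and lowered Cd83. αCD3 raised Tnfsf4 and Icam1 and lowered Cd80 and Cd83. Icosl went in opposite directions, 1.62-fold higher with IFNγ and 1.83-fold lower with LPS. The 3 comparisons with Naïve share the same 3 control libraries.

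A gene is referred to as called where the edgeR quasi-likelihood test gave an adjusted p under 0.05, with Benjamini-Hochberg adjustment over all tested genes. With IFNγ 4 of the 8 genes were called, 3 higher and 1 lower, where 12.4% of all tested genes were called (8.17% higher and 4.27% lower). With αCD3 4 were called, 2 higher and 2 lower, against 38.6% of all tested genes (22.9% higher and 15.7% lower). With LPS 6 were called, 5 higher and 1 lower, against 49.3% of all tested genes (26.9% higher and 22.3% lower). Without Naïve replicate 2 or 3 or IFNγ replicate 2 or 3, 2 genes were called with IFNγ, namely Cd83 and Icam1. Over all genes the calls fell too, from 1508 to 850, 835, 787 and 918 in these settings. The median log2 fold change of the 8 genes was 0.64 with IFNγ, 0.08 with αCD3 and 0.84 with LPS, beside medians of -0.02, -0.02 and -0.01 over all tested genes. Libraries with the same replicate number deviated together, and with that number as a term in the fit (the blocked fit) 6, 5 and 7 of the 8 genes were called, against 24.9%, 52.4% and 59.5% of all tested genes.

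**Figure D1:**
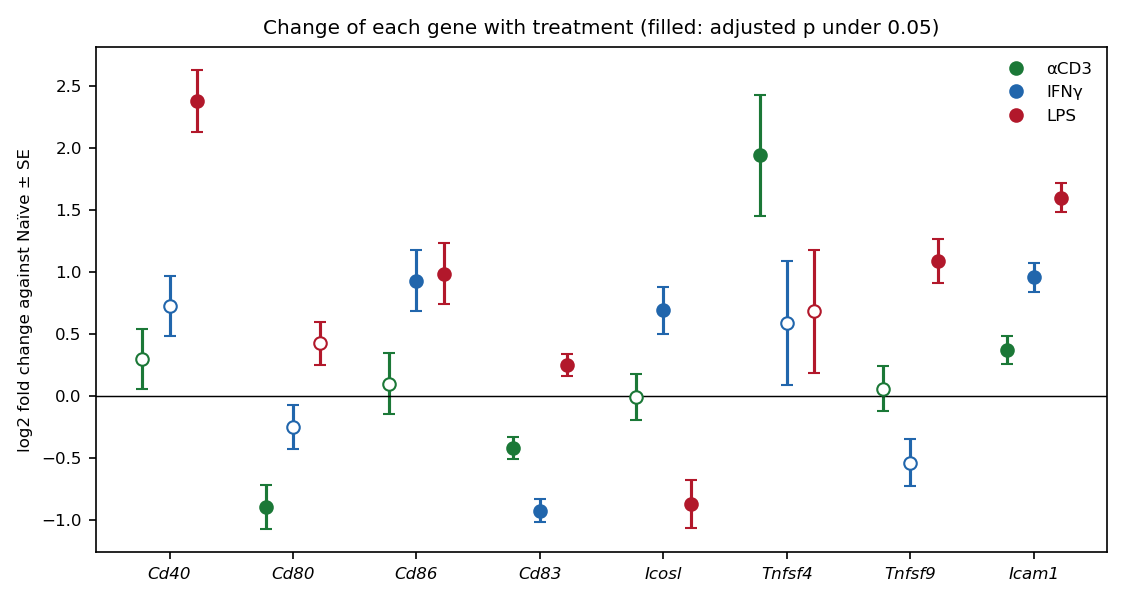
Log2 fold change against Naïve (y axis) for each of the 8 genes (x axis) with αCD3, IFNγ and LPS; points are estimates of the edgeR fit, bars are ± SE, and filled points have an adjusted p under 0.05. The largest change is that of Cd40 with LPS (2.38), and Icosl lies above 0 with IFNγ (0.69) and below it with LPS (-0.87).

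Promoter sequences were taken from RefSeq (GRCm38.p6), which matched 3 of the 8 genes by symbol, namely Icam1, Icosl and Cd80. All 3 windows that matched are shown, beside genes that responded differently, Icam1 being called higher with each stimulus, Icosl being raised by IFNγ and lowered by LPS, and Cd80 being lowered by αCD3. Each is the 250 bases before the RefSeq start, read 5′ to 3′ on the + strand, at chr9:21015690-21015939 for Icam1, chr10:78069118-78069367 for Icosl and chr16:38458683-38458932 for Cd80. RefSeq and GENCODE differ in where these genes start, so that the Cd80 window lies within the GENCODE span of the gene given below and the end of the Icosl window runs into that of Icosl. Capitals mark letters that match an NF-κB motif (GGANNTTCC), the motif of the factors downstream of Toll-like receptors and CD40, or a GAS motif (TTCNNNGAA), the gamma interferon activation site, on either strand.
Icam1: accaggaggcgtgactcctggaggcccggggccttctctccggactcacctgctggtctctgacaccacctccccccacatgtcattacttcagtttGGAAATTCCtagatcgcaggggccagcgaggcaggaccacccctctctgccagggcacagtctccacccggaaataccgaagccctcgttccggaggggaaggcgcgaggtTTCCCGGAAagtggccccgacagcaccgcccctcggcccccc
Icosl: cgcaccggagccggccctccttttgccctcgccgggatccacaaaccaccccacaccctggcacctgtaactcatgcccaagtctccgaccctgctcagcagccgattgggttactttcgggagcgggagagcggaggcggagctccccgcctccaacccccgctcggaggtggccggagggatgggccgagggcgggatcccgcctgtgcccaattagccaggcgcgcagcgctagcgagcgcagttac
Cd80: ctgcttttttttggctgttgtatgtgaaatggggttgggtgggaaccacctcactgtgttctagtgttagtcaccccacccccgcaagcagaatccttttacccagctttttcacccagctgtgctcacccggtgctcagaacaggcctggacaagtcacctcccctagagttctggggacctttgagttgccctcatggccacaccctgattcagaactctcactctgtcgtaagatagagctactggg
The Icam1 window held the NF-κB letters GGAAATTCC, 153 to 145 bases before the start, and the GAS letters TTCCCGGAA, 42 to 34 bases before it. The Icosl and Cd80 windows held neither motif, and none of the 3 windows held the interferon-stimulated response element letters GAAANNGAA. Among 32851 RefSeq promoter windows of the same length, 3.59% held the NF-κB letters, 7.02% the GAS letters and 7.13% the response element letters. A match of letters is a description and was not tested as a binding site. Cd40, Cd86, Cd83, Tnfsf4 and Tnfsf9 have no sequence shown.

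Total counts ranged from 10.2 M to 27.6 M per library. The defining T cell transcripts Cd3e (87.6 to 187 CPM, that is counts relative to library size) and Cd8a (188 to 504 CPM) were present in all 12 libraries, and Cd4 was at 23.2 to 40.4 CPM. The defining B cell transcripts Ms4a1 (373 to 602 CPM) and Cd79a (234 to 958 CPM) were present in all libraries too, although the label reads CD8 T cells. Lyz2 (73.1 to 293 CPM) and Csf1r (21.5 to 142 CPM), which mark myeloid cells, were also present, as were Itgax (13.1 to 49.3 CPM) and Flt3 (11.8 to 38.1 CPM) of dendritic cells. The NK cell marker Ncr1 was lower, at 0.648 to 6.39 CPM. The 4 replicate 1 libraries stood apart, with the lowest summed myeloid markers of each group (14 genes, 586 to 810 CPM against 913 to 1432 CPM in the other 8 libraries). B cells, dendritic cells and macrophages are known to carry the proteins described here, and their part in the results was not tested.

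**Figure D2:**
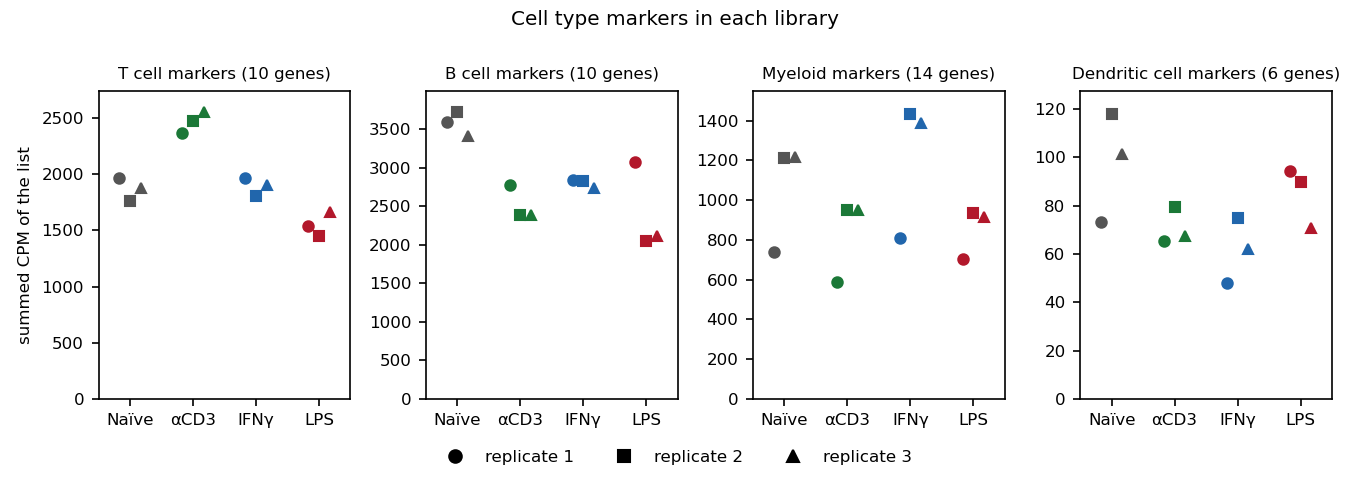
Summed CPM (y axis, from 0) of T cell, B cell, myeloid and dendritic cell markers in each of the 12 libraries by group (x axis); the symbol gives the replicate number. The myeloid sum of replicate 1 is the lowest of its group in all 4 groups, and the B cell sums are highest in Naïve (3414 to 3720 CPM).

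Levels per length were compared as CPM per kilobase of annotated exon. In Naïve, Cd83 was the highest of the 8 genes at 93.1 ± 3.68 CPM per kilobase (SD, n = 3), followed by Cd86 at 43.4 ± 4.43, Icam1 at 29.3 ± 3.38, Cd40 at 19.2 ± 1.81 and Icosl at 11.3 ± 2.01. Tnfsf9 (3.06 ± 0.566), Tnfsf4 (2.51 ± 1.61) and Cd80 (1.73 ± 0.260) were far lower on this scale. With LPS, Cd40 lay at 69.5, 123 and 107 CPM per kilobase in the 3 libraries, beside a mean of 111 ± 12.5 for Cd83, 88.9 ± 9.69 for Icam1 and 85.9 ± 26.4 for Cd86. The 3 low genes rested on few reads, with 38.3 to 122 estimated counts per library for Cd80, 27 to 113 for Tnfsf9 and 35 to 598 for Tnfsf4.

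**Figure D3:**
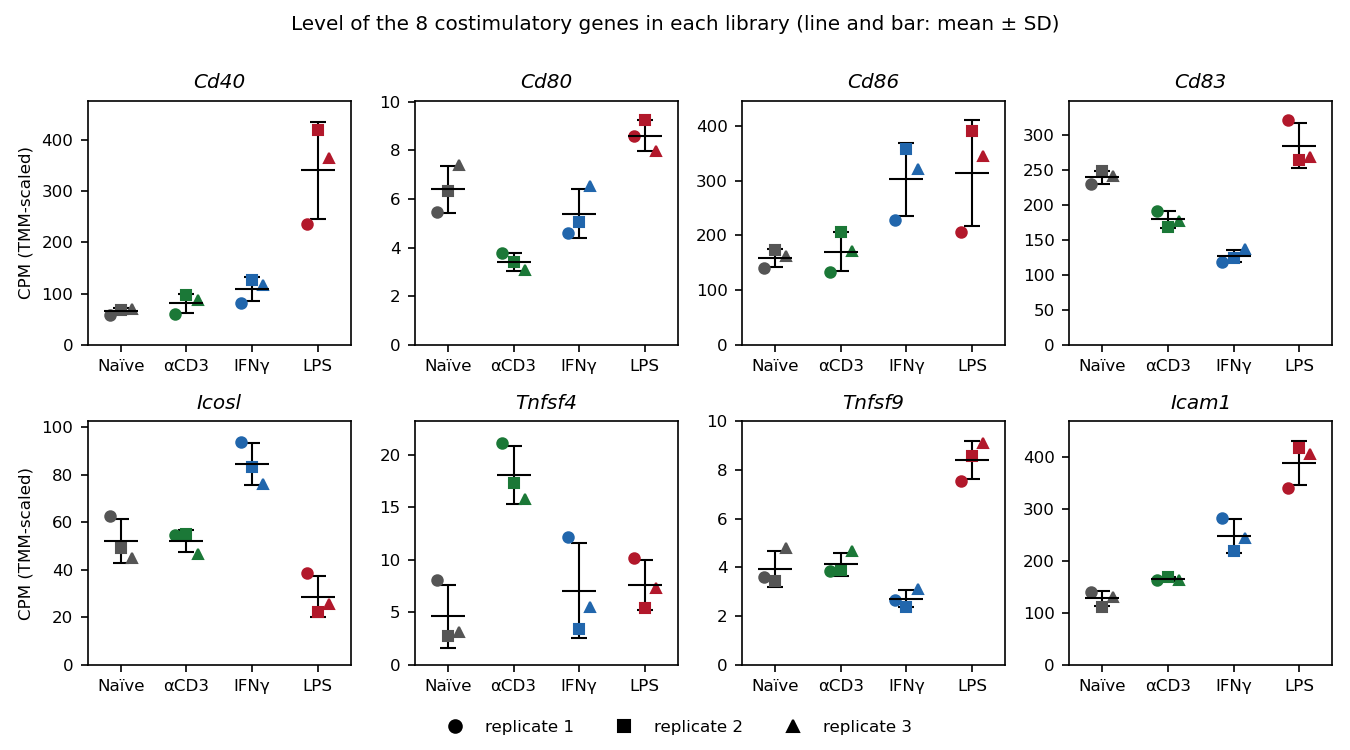
Level of each gene (y axis, TMM-scaled CPM, from 0) in the 12 libraries by group (x axis); symbols give the replicate number, the horizontal line is the mean and the bar the SD of 3 libraries. Cd40 and Icam1 are highest with LPS, Tnfsf4 with αCD3 and Icosl with IFNγ.

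To follow the CD40 axis, the receptor itself was examined first. Cd40 lies on chromosome 2 at 165055627 to 165072948 (+ strand, GRCm38), and 97.0% of its words of 31 bases are unique to it. It was at 58.4, 68.7 and 69.4 CPM in Naïve replicates 1 to 3, at 59.7, 96.3 and 86.5 CPM in αCD3, at 81.6, 127 and 116 CPM in IFNγ, and at 237, 420 and 366 CPM in LPS. Each LPS library thus lay above all other libraries, and each IFNγ library lay above all Naïve libraries. In bulk RNA a change in the number of cells of a type and a change in RNA per cell cannot be told apart. With LPS the log2 fold change against Naïve was 2.38 ± 0.25 (SE; edgeR adjusted p = 3.53e-05), and Cd40 was also higher than with IFNγ (adjusted p = 3.55e-04) and αCD3 (adjusted p = 3.21e-04). Against Naïve, IFNγ gave 0.73 ± 0.24 (edgeR adjusted p = 0.0804, or 4.80e-04 with 0.70 in the blocked fit, and 0.0240 by DESeq2), and without IFNγ replicate 1 it was 0.88 (adjusted p = 0.0465). αCD3 gave 0.30 ± 0.24 (edgeR adjusted p = 0.349, or 0.0288 blocked), and IFNγ lay 0.42 above αCD3 (adjusted p = 0.195, or 0.00289 blocked).

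Cd40 followed the replicate number. Replicate 1 was the lowest library in each of the 4 groups, by 0.24 in Naïve, 0.61 in αCD3, 0.57 in IFNγ and 0.73 in LPS on the log2 scale against the mean of replicates 2 and 3. Within a number, IFNγ exceeded Naïve by 0.48, 0.88 and 0.74 (log2, replicates 1 to 3), and LPS exceeded Naïve by 2.02, 2.61 and 2.40. In replicates 2 and 3 alone, a choice made after seeing the data, Cd40 was 0.80 above Naïve with IFNγ (edgeR adjusted p = 1.88e-04) and 0.41 above it with αCD3 (adjusted p = 0.00373). With LPS 22.3% of all tested genes were called lower and 26.9% higher, and the blocked fit called 59.5% in either direction. The summed B cell markers (10 genes) were 2052 to 3073 CPM with LPS, below the 3414 to 3720 CPM of Naïve. Of the 10 genes, 3 were called lower and 1 higher (3 and 3 in the blocked fit). The summed myeloid markers were 704 to 933 CPM with LPS and 739 to 1216 CPM in Naïve. The summed dendritic cell markers were 70.8 to 94.6 CPM with LPS and 73.3 to 118 CPM in Naïve. Of their 6 tested genes 1 was called higher and 1 lower (1 and 3 in the blocked fit), with a median log2 fold change of -0.47. The gene called higher was Zbtb46 (from 13.1 ± 0.962 to 27.4 ± 0.845 CPM, SD, n = 3, edgeR adjusted p = 1.34e-05). Itgax had a mean of 41.0 CPM in Naïve and 15.9 CPM with LPS, and Flt3 24.8 and 30.3 CPM. The summed T cell markers were 1451 to 1660 CPM with LPS against 1760 to 1964 CPM in Naïve, with 7 of 10 genes called lower and none higher. The part of these cell types in the Cd40 level was not tested.

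Genes that act behind CD40 were then examined as a list of 18 TRAF, NF-κB and related genes, all of them tested. The NF-κB factors also act downstream of Toll-like receptors, and which receptor lay behind a change was not tested. With LPS 12 were called higher, 1 lower, and 5 were not called, with a median log2 fold change of 0.37, where 49.3% of all tested genes were called with a median of -0.01. Nfkbia, the inhibitor IκBα, rose most (1.40 ± 0.08, edgeR adjusted p = 1.11e-06), from 223 ± 10.2 to 589 ± 19.3 CPM (SD, n = 3). Map3k14, the kinase NIK of the non-canonical NF-κB pathway, fell (-0.45 ± 0.07, edgeR adjusted p = 5.45e-04). The blocked fit called 13 higher and 2 lower, against 59.5% of all tested genes. Library size alone called 9 higher and 3 lower, where it called 2140 of all genes higher and 4380 lower. In αCD3, 3 members were called higher and 2 lower, against 38.6% of all tested genes, or 3 and 4 in the blocked fit, against 52.4%. Library size alone called 1 higher and 3 lower, where it called 2095 of all genes higher and 2667 lower. Nfkb1, which encodes the p105 precursor of NF-κB, was at 0.42 ± 0.06 (edgeR adjusted p = 5.08e-04) and Map3k14 at -0.28 ± 0.07 (edgeR adjusted p = 0.0116). With IFNγ 3 were called higher and 1 lower, against 12.4% of all tested genes, or 5 and 3 in the blocked fit, against 24.9%. The adaptor gene Traf5 rose by 0.71 ± 0.09 (edgeR adjusted p = 9.99e-04) and the NF-κB subunit gene Rel fell by 0.32 ± 0.09 on the log2 scale (edgeR adjusted p = 0.0351). The ligand of CD40, Cd40lg, was at 2.52 ± 0.735 CPM in Naïve, 2.54 ± 0.762 in αCD3 and 2.15 ± 0.197 in LPS, and was not called in any of these comparisons.

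To examine the B7 family, Cd86 was taken first, which among the 8 genes is the B7 gene of the highest level per length. It lies on chromosome 16 at 36603869 to 36666081 (- strand), and was at 141, 173 and 162 CPM in Naïve, 134, 206 and 171 CPM in αCD3, 229, 358 and 322 CPM in IFNγ, and 206, 392 and 345 CPM in LPS. All IFNγ and all LPS libraries lay above the Naïve libraries, whereas αCD3 and Naïve overlapped. Cd86 rose with IFNγ (0.93 ± 0.25, edgeR adjusted p = 0.0332) and with LPS (0.99 ± 0.25, adjusted p = 0.00742), each close to 2-fold (1.91 and 1.98). IFNγ and LPS differed by -0.06 (95% confidence interval -0.60 to 0.49, edgeR adjusted p = 0.877), an interval that leaves room for a difference of either sign. αCD3 gave 0.10 ± 0.24 against Naïve (95% confidence interval -0.44 to 0.64, edgeR adjusted p = 0.771), and was below IFNγ (adjusted p = 0.0226) and LPS (adjusted p = 0.0302). The first was lost without αCD3 replicate 1 or 3 or IFNγ replicate 2 or 3 (adjusted p 0.0626 to 0.0829), and the second without αCD3 replicate 1 or 3 or LPS replicate 2 or 3 (0.0820 to 0.116) and without the count filter (0.0519).

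Replicate 1 was the lowest Cd86 library of all 4 groups too, by 0.24 to 0.83 on the log2 scale. IFNγ exceeded the Naïve library of the same number by 0.70, 1.04 and 0.99, and the blocked fit gave 0.90 ± 0.10 (edgeR adjusted p = 2.47e-04), beside 1.00 in replicates 2 and 3 alone (adjusted p = 2.41e-04). The call with IFNγ was lost without Naïve replicate 1, 2 or 3 or without IFNγ replicate 2 or 3, with adjusted p of 0.0768 to 0.127, and without the count filter (adjusted p = 0.0601). The summed myeloid markers, also lowest in replicate 1, were 810, 1432 and 1389 CPM in IFNγ and 739, 1212 and 1216 CPM in Naïve, and 1 of their 14 genes was called higher with IFNγ and none lower, or 3 higher and 3 lower in the blocked fit. With LPS, 7 of the 14 were called lower and 1 higher (11 and 2 in the blocked fit). Over all tested genes, 22.3% were called lower and 26.9% higher with LPS, and 4.27% lower and 8.17% higher with IFNγ. The blocked fit called 59.5% of all tested genes with LPS and 24.9% with IFNγ. The part of myeloid cells in the Cd86 level was not tested.

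**Figure D4:**
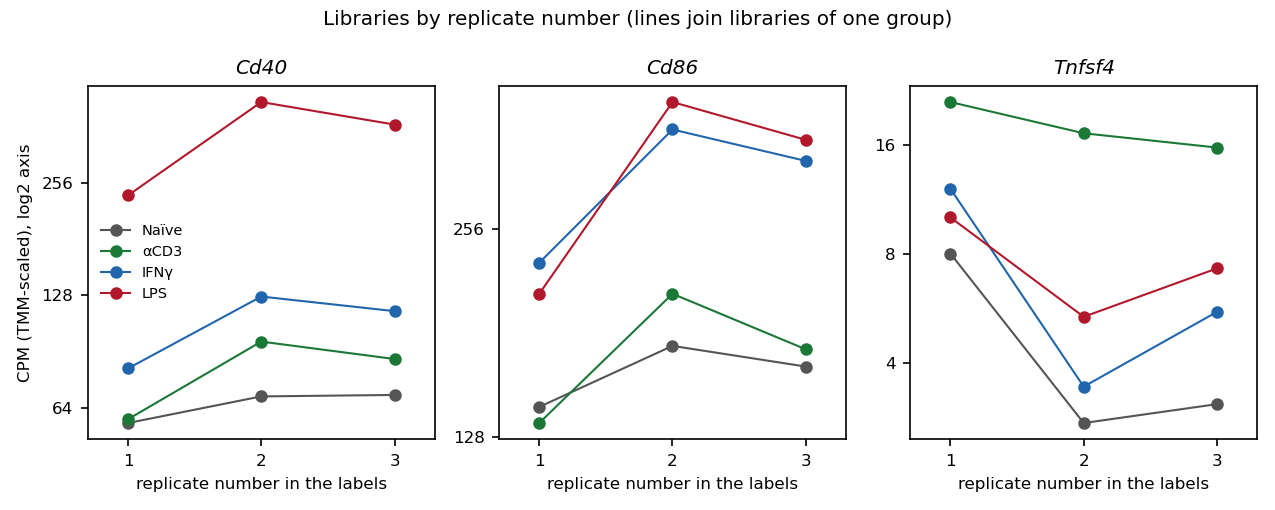
Levels of Cd40, Cd86 and Tnfsf4 (y axis, TMM-scaled CPM, log2 axis) by the replicate number of the labels (x axis), with 1 line for each group. Replicate 1 is lowest for Cd40 and Cd86 and highest for Tnfsf4 in all 4 groups.

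Cd80, the other ligand of CD28 and CTLA-4, behaved differently from Cd86. The gene lies on chromosome 16 at 38455561 to 38496335 (+ strand), and its promoter window printed above, like that of Icosl, held none of the motifs searched. Levels were 5.46, 6.33 and 7.38 CPM in Naïve, 3.77, 3.39 and 3.06 CPM in αCD3, 4.62, 5.04 and 6.53 CPM in IFNγ, and 8.59, 9.25 and 7.96 CPM in LPS. The αCD3 libraries were the 3 lowest and the LPS libraries the 3 highest of the 12. Cd80 fell with αCD3 by 0.90 ± 0.18 on the log2 scale (edgeR adjusted p = 0.00260), a 1.86-fold lower level, and the call held in all 12 alternatives. With IFNγ the change was -0.25 (95% confidence interval -0.63 to 0.14, edgeR adjusted p = 0.432), and IFNγ was above αCD3 (0.65, adjusted p = 0.0156), a call lost without αCD3 replicate 3 (0.0596) or IFNγ replicate 3 (0.0651). LPS gave 0.43 ± 0.17 against Naïve (edgeR adjusted p = 0.0596), which among the 12 alternatives passed only without Naïve replicate 3 (0.55, adjusted p = 0.0429), whereas LPS exceeded IFNγ (adjusted p = 0.0104) and αCD3 (adjusted p = 5.84e-04). The summed B cell markers were also lower with αCD3 (2391 to 2776 CPM), with 5 of 10 genes called lower and none higher (7 lower in the blocked fit). The summed myeloid markers were 586 to 951 CPM with αCD3 against 739 to 1216 CPM in Naïve, with 6 of 14 genes called lower and 1 higher (13 and 1 in the blocked fit). Of 6 dendritic cell markers, 2 were called lower (3 in the blocked fit). Over all tested genes 15.7% were called lower and 22.9% higher with αCD3 (52.4% in either direction in the blocked fit). The part of these cell types in the lower Cd80 was not tested.

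Icosl, the ligand of ICOS, was the gene raised by IFNγ and lowered by LPS. It lies on chromosome 10 at 78069302 to 78083913 (+ strand) and was at 62.7, 49.0 and 44.8 CPM in Naïve, 54.5, 54.8 and 46.7 CPM in αCD3, 93.9, 83.1 and 76.2 CPM in IFNγ, and 38.4, 22.2 and 25.5 CPM in LPS. The IFNγ libraries were the 3 highest and the LPS libraries the 3 lowest, with Naïve and αCD3 overlapping in between. Icosl rose with IFNγ by 0.69 ± 0.19 (edgeR adjusted p = 0.0349, or 0.00160 blocked) and fell with LPS by 0.87 ± 0.19 on the log2 scale (edgeR adjusted p = 0.00368). The direct contrast of IFNγ with LPS was 1.56 ± 0.19, a 2.95-fold difference (edgeR adjusted p = 9.83e-05), and the LPS and direct contrasts were called in all 12 alternatives. αCD3 lay at -0.0052 from Naïve (95% confidence interval -0.42 to 0.41, edgeR adjusted p = 0.988) and above LPS (0.86, adjusted p = 0.0106). The IFNγ call was lost without Naïve replicate 2 or 3 or without IFNγ replicate 1, 2 or 3 (adjusted p 0.0611 to 0.130), and with library size as the only scaling (0.55, adjusted p = 0.0763). The summed B cell markers of the LPS group were 3073 CPM in replicate 1 and 2052 and 2108 CPM in replicates 2 and 3, and Icosl was likewise highest in replicate 1 of that group. In IFNγ, too, both were highest in replicate 1. In Naïve, Icosl was highest in replicate 1 and the B cell sum in replicate 2 (3720 CPM). In αCD3, the B cell sum was highest in replicate 1 (2776 CPM) and Icosl in replicate 2. With IFNγ the B cell markers summed to 2734 to 2839 CPM, below Naïve, with 2 of the 10 genes called lower (3 in the blocked fit) and 8 not called. Over all tested genes 4.27% were called lower with IFNγ. The part of B cells in the Icosl levels was not tested.

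To examine the TNF family ligands, Tnfsf4 and Tnfsf9 were compared over the same libraries. Tnfsf4 (OX40 ligand, chromosome 1 at 161395409 to 161418410, + strand) was at 8.04, 2.74 and 3.09 CPM in Naïve, 21.1, 17.3 and 15.8 CPM in αCD3, 12.1, 3.45 and 5.55 CPM in IFNγ, and 10.1, 5.38 and 7.32 CPM in LPS. All αCD3 libraries lay above all 9 others, which overlapped among themselves. Tnfsf4 rose with αCD3 by 1.94 ± 0.49 (edgeR adjusted p = 0.0105, or 2.09 ± 0.26 and 1.28e-04 blocked), a 3.84-fold higher level called in all 12 alternatives. With IFNγ the change was 0.59 (95% confidence interval -0.51 to 1.69, edgeR adjusted p = 0.516), or -0.077 without IFNγ replicate 1 (adjusted p = 0.935), and αCD3 exceeded IFNγ by 1.35 (adjusted p = 0.0490, or 9.95e-04 blocked). LPS gave 0.69 ± 0.50 against Naïve (edgeR adjusted p = 0.276, or 0.80 and 0.0299 blocked), and αCD3 lay 1.26 above LPS (adjusted p = 0.0954, or 0.00391 blocked).

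Replicate 1 held the highest Tnfsf4 level of all 4 groups, opposite to Cd40 and Cd86, by 1.43 in Naïve and 1.44 in IFNγ on the log2 scale. In replicates 2 and 3 alone, αCD3 exceeded Naïve by 2.50 (edgeR adjusted p = 5.15e-05) and LPS exceeded Naïve by 1.12 (adjusted p = 0.00522), and without Naïve replicate 1 the LPS value was 1.37 (adjusted p = 0.0447). The call of αCD3 over IFNγ was lost without αCD3 replicate 1, 2 or 3 or IFNγ replicate 2 or 3 (adjusted p 0.0800 to 0.147), with library size alone (0.0534) and without the count filter (0.0679). The summed T cell markers (10 genes) were highest with αCD3, at 2364 to 2555 CPM against 1760 to 1964 CPM in Naïve.

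Tnfsf9 (4-1BB ligand, chromosome 17 at 57105325 to 57107757, + strand) was raised by LPS. Its levels were 3.61, 3.44 and 4.78 CPM in Naïve, 3.84, 3.89 and 4.67 CPM in αCD3, 2.67, 2.39 and 3.12 CPM in IFNγ, and 7.57, 8.57 and 9.09 CPM in LPS. The 3 LPS libraries were the highest and the 3 IFNγ libraries the lowest of the 12. Tnfsf9 rose with LPS by 1.09 ± 0.18 (edgeR adjusted p = 5.50e-04), a 2.13-fold higher level called in all 12 alternatives, and LPS exceeded IFNγ 3.09-fold (adjusted p = 5.26e-05) and αCD3 2.04-fold (adjusted p = 0.00254). IFNγ gave -0.53 ± 0.19 against Naïve (edgeR adjusted p = 0.0920, or 0.0287 blocked and 0.0294 with library size alone) and lay below αCD3 (-0.60, adjusted p = 0.0273). The latter was lost by DESeq2 (adjusted p = 0.0574), in replicates 2 and 3 alone (0.0618) and without αCD3 replicate 3 or IFNγ replicate 1 or 2 (0.0683 to 0.0961). αCD3 differed from Naïve by 0.06 (95% confidence interval -0.33 to 0.46, edgeR adjusted p = 0.867). An exon of the predicted gene Gm11110 overlaps Tnfsf9 on the other strand, and reads of such a pair cannot be told apart without strand-specific counting.

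The T cell receptors of these ligands were examined as a list of 8 genes, all of them tested. With αCD3 4 were called higher (Cd28, Ctla4, Icos and Tnfrsf9) and none lower, where 38.6% of all tested genes were called, or 6 higher in the blocked fit, against 52.4%. The receptor of 4-1BB ligand, Tnfrsf9, rose most, from 54.7 ± 13.9 CPM in Naïve to 375 ± 85.7 CPM (SD, n = 3; log2 fold change 2.78 ± 0.37, edgeR adjusted p = 2.72e-04), while Tnfsf9 itself was not called. Tnfrsf4, the receptor of OX40 ligand, was at 28.3 ± 4.85 CPM in Naïve and 34.0 ± 8.51 CPM in αCD3 (edgeR adjusted p = 0.426, or 0.0189 blocked). With IFNγ 0 of the 8 receptor genes were called by edgeR, 0 had an unadjusted p under 0.05 and 0 were called by DESeq2, where edgeR called 12.4% of all tested genes. With LPS 1 was called higher and 1 lower, against 49.3% of all tested genes, or 3 and 2 in the blocked fit, against 59.5%. Those were the LFA-1 chains Itgal (0.31 ± 0.10, edgeR adjusted p = 0.0273) and Itgb2 (-0.63 ± 0.11, edgeR adjusted p = 0.00118), which together form the receptor of ICAM-1. With library size as the only scaling, 0 of the 8 receptor genes were called higher with LPS and 2 were called lower. That scaling called 2140 of all 12122 tested genes higher and 4380 lower.

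Icam1, the adhesion ligand, separated all 4 groups. It lies on chromosome 9 at 21015985 to 21028817 (+ strand), downstream of the promoter window printed above with its NF-κB and GAS letters. Levels were 141, 112 and 130 CPM in Naïve, 164, 169 and 163 CPM in αCD3, 283, 218 and 244 CPM in IFNγ, and 339, 417 and 406 CPM in LPS. The groups did not overlap, and their order was LPS above IFNγ above αCD3 above Naïve. Each step of that order was called, at 0.64 between LPS and IFNγ (edgeR adjusted p = 0.00115), 0.59 between IFNγ and αCD3 (adjusted p = 0.00231) and 0.37 between αCD3 and Naïve (adjusted p = 0.0256). Against Naïve, IFNγ gave 0.96 ± 0.12 (edgeR adjusted p = 6.75e-04) and LPS 1.60 ± 0.12 (adjusted p = 3.66e-06), and both were called in all 12 alternatives. The αCD3 step was lost with library size as the only scaling (0.26, adjusted p = 0.102) and without Naïve replicate 2 or 3 or αCD3 replicate 2 or 3 (adjusted p 0.0577 to 0.0958). The predicted gene Gm47079 overlaps an Icam1 exon on the other strand, and 96.5% of the words of 31 bases in Icam1 are unique to it.

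Cd83 was the gene of the highest level per length in Naïve, and the only one of the 8 called lower with both αCD3 and IFNγ. It lies on chromosome 13 at 43784775 to 43803132 (+ strand) and was at 230, 248 and 241 CPM in Naïve, 192, 168 and 177 CPM in αCD3, 119, 125 and 136 CPM in IFNγ, and 322, 264 and 269 CPM in LPS. No groups overlapped, in the order LPS, Naïve, αCD3, IFNγ. Cd83 fell with IFNγ by 0.92 ± 0.09 on the log2 scale (edgeR adjusted p = 3.21e-04), a 1.89-fold lower level, and with αCD3 by 0.42 ± 0.09 (adjusted p = 0.00391). Both were called in all 12 alternatives, as was the 2.25-fold difference between LPS and IFNγ (edgeR adjusted p = 4.00e-06). The higher level with LPS was small (0.25 ± 0.09, edgeR adjusted p = 0.0375), and was 0.04 with library size as the only scaling (adjusted p = 0.736) and 0.13 in replicates 2 and 3 alone (adjusted p = 0.0958). That call was also lost without the count filter (0.0645) and without Naïve replicate 1, 2 or 3 or LPS replicate 1 (adjusted p 0.0565 to 0.134). The summed dendritic cell markers (the 6 tested of 7 genes) were 73.3 to 118 CPM in Naïve, 65.4 to 79.4 in αCD3, 48.0 to 74.7 in IFNγ and 70.8 to 94.6 in LPS, the seventh gene Cd209a being at 0 counts in the LPS libraries. The summed B cell markers were 2391 to 2776 CPM in αCD3 and 2734 to 2839 CPM in IFNγ, below the 3414 to 3720 CPM of Naïve. With αCD3, 6 of the 14 myeloid markers were called lower and 1 higher (13 and 1 in the blocked fit). Over all tested genes αCD3 had 15.7% called lower and 22.9% higher (52.4% in either direction in the blocked fit). The part of these cell types in the Cd83 levels was not tested.

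The treatments were also compared with each other. Between IFNγ and αCD3, 7 of the 8 genes were called, 4 higher with IFNγ and 3 lower, where 37.2% of all tested genes were called (15.8% higher and 21.4% lower). Without αCD3 replicate 3, 2 of these were called, and 4 without IFNγ replicate 2 or 3. Over all genes the calls fell too, from 4514 to 3462 without αCD3 replicate 3, and to 3674 and 3762 without IFNγ replicates 2 and 3. Between IFNγ and LPS 6 were called, with Icosl higher and 5 genes lower in IFNγ, against 40.4% of all tested genes (18.0% higher and 22.4% lower). The 2 that were not called there were Cd86 and Tnfsf4, with intervals that span 0 (-0.60 to 0.49 and -1.19 to 1.00, 95%). Between αCD3 and LPS 7 were called, 6 of them lower with αCD3, against 19.4% of all tested genes (9.64% higher and 9.76% lower). Icosl was the gene called higher with αCD3 than with LPS, and the other gene above LPS, Tnfsf4, was called in the blocked fit. These 3 contrasts use the same treated libraries as the comparisons with Naïve.

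To set the 8 genes beside related molecules, 17 other B7, TNF, SLAM and adhesion ligands were listed, of which 16 were in the table and 13 were tested. With IFNγ 2 were called higher and 2 lower, against 12.4% of all tested genes, or 2 and 4 in the blocked fit, against 24.9%. The inhibitory B7 ligand gene Cd274 (PD-L1) rose most, from 129 ± 32.8 to 569 ± 18.0 CPM (SD, n = 3; 2.15 ± 0.30, edgeR adjusted p = 0.00145), and Pvr, the ligand CD155, fell (-0.55 ± 0.15, adjusted p = 0.0351). In αCD3, 3 were called higher and 1 lower, against 38.6% of all tested genes, or 6 and 1 in the blocked fit, against 52.4%. The TNF family ligand gene Tnfsf14 (LIGHT) rose from 5.15 ± 0.619 to 24.7 ± 8.18 CPM (2.26 ± 0.23, edgeR adjusted p = 4.87e-05), and the SLAM family gene Cd48 fell by 0.22 ± 0.07 on the log2 scale (adjusted p = 0.0350). With LPS 6 were called higher and 3 lower, against 49.3% of all tested genes. The SLAM receptor gene Slamf1 rose from 11.6 ± 1.82 to 50.5 ± 18.6 CPM (2.13 ± 0.26, edgeR adjusted p = 8.27e-05), and Icam2, a second LFA-1 ligand gene, fell by 0.59 ± 0.11 on the log2 scale (adjusted p = 0.00143), opposite to Icam1. The median log2 fold change of the 13 was -0.04 with IFNγ, 0.20 with αCD3 and 0.26 with LPS, beside -0.02, -0.02 and -0.01 over all tested genes.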

How the data were processed

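RNA of 12 libraries was sequenced, 3 for each of the Naïve, αCD3, IFNγ and LPS groups, which were taken from the labels. Reads were assigned to mm10 transcripts by the authors with Kallisto, and the deposited values are unscaled estimated counts for each gene symbol in each library. The Kallisto version is not given in the sources used here, and the submitters' processing notes name DESeq2 1.24.0. Reads shared by transcripts are divided by estimation, so the expected counts are partly fractional, and they were rounded to whole numbers here.

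The 8 genes were taken by symbol, and they and the gene lists were chosen with earlier results of these data known. Counts were tested in edgeR 4.0.16 (R 4.3.3) by quasi-likelihood (glmQLFit robust, glmQLFTest, TMM factors, filterByExpr, 12122 genes), in 1 fit of all libraries with 6 contrasts and Benjamini-Hochberg adjustment over all tested genes. SE and 95% intervals are from that fit, and CPM are on TMM-scaled library sizes. The procedure was tested on simulated data. Total counts were 10.2 M to 27.6 M per library, and the SE of a log2 fold change was largest for Tnfsf4 among the 8 genes.

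Deviations from the group means of libraries with the same replicate number correlated at r = 0.12 to 0.40 in all 18 pairs (-0.35 to 0.10 for 36 pairs of different numbers), so the numbers of the labels were taken to pair the libraries and a fit with the replicate block was run beside the main one. Alternatives were relative log expression (RLE) factors in edgeR, library size alone, no count filter, the replicate block and DESeq2 1.42.0. Further alternatives were leaving out each library, and replicates 2 and 3 alone. All members are named. From the other lists, the called gene with the largest rise and the largest fall against Naïve and at least 5 CPM was named for each comparison. Cd40lg, Cd28, Ctla4, Icos, Tnfrsf4 and Zbtb46, and Gm11110 and Gm47079, were named after their values were seen. Coordinates are from GENCODE M21 (GRCm38), which matched 20612 symbols. One of the defining B cell markers is not reported here by itself.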

Additional observations from a re-analysis of the deposited data

How the results depend on the processing

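Against Naïve, the changes of Icam1 and Cd83 with IFNγ, of Cd80, Cd83 and Tnfsf4 with αCD3, and of Cd40, Cd86, Icosl, Tnfsf9 and Icam1 with LPS were called in all 12 alternatives run for each. Beyond the calls named with each gene above, the replicate block changed no other call of the 8 genes. Library size alone moved the median log2 fold change of all genes to -0.16 with IFNγ, -0.13 with αCD3 and -0.22 with LPS, and to 0.11 between IFNγ and LPS. It split the called genes into 715 higher and 1564 lower with IFNγ (990 and 518 with TMM), 2095 and 2667 with αCD3 (2775 and 1906), 2140 and 4380 with LPS (3265 and 2709), 2586 and 2330 between IFNγ and LPS (where TMM called more lower, 2713, than higher) and 1691 and 766 between αCD3 and LPS (1168 and 1183), and called 2 of the 8 genes higher and 2 lower with IFNγ and 1 and 2 with αCD3. The cause of changes between settings was not tested.

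Genes called with IFNγ numbered 1508, and 2279 with library size alone, 3020 with the replicate block, 2837 in replicates 2 and 3 alone (chosen after seeing the data), and 787 to 1533 without 1 library. Between αCD3 and LPS they were 2351, 4202 with the block, 3582 in replicates 2 and 3 and 1429 to 2590 without 1 library. Of the 8 genes, 2 to 4 were called with IFNγ, and 2 to 6 between IFNγ and αCD3, without 1 library. Between IFNγ and αCD3, 3462 to 4552 of all genes were called without 1 library. The receptor list had 1 call with IFNγ under library size alone and 2 in replicates 2 and 3, beside 2279 and 2837 over all genes. It had 7 with αCD3 in replicates 2 and 3, beside 5947. With LPS it had 5 under the block and 6 in replicates 2 and 3, beside 7207 and 6720. Between IFNγ and LPS it had 1 without the count filter, beside 4588, and 5 under both the block and replicates 2 and 3, beside 6387 and 5831. The CD40 signalling list had 8 calls with IFNγ and 11 between IFNγ and αCD3 under the block, beside 3020 and 6020 calls over all genes. The other ligand list had 2 with αCD3 without the count filter and 7 under the block, beside 4280 and 6349 over all genes.

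The values that changed sign were not called in any of these settings. Library size alone gave -0.014 for Cd86 and -0.048 for Tnfsf9 with αCD3, and 0.015 for Cd86 between IFNγ and LPS. Icosl with αCD3 was 0.0011 under the replicate block, 0.12 in replicates 2 and 3, and -0.10 to 0.15 without 1 library. Without 1 library, Tnfsf4 with IFNγ ranged from -0.077 to 1.28, Cd86 with αCD3 from -0.058 to 0.25, Tnfsf9 with αCD3 from -0.029 to 0.22, Cd86 between IFNγ and LPS from -0.29 to 0.13, and Tnfsf4 between IFNγ and LPS from -0.75 to 0.23. Where an arm is left with 2 libraries the spread is that of the whole fit. Tnfsf4 had the largest SE of the 8 genes.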

Other observations

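The tested genes whose pattern over the 12 libraries was most like that of each ligand were found by the Pearson r of log2 CPM, among 9451 or 9452 genes whose mean reached 5 CPM. The points share the 4 treatments and the replicate numbers, so r is given as a description. Cd40 was closest to Mybl2 (0.98), Cflar (0.97) and Atf6 (0.97), and Cd83 to Il4i1 (0.98), Stt3b (0.97) and Grm6 (0.97). Cd86 was closest to Il12rb2 (0.97), a chain of the interleukin 12 receptor, and to Fam126a (0.97) and Ubald2 (0.97). Icosl was closest to Aff3 (0.97), Pon2 (0.97) and Slc23a2 (0.97). Tnfsf9 was closest to Tnfrsf1b (0.97), which encodes the second TNF receptor, and to Ube2e3 (0.96) and Pycr1 (0.96). Icam1 was closest to Eef1a1 (0.97), Gtdc1 (0.96) and Ppp3cb (0.96). Cd80 (Cd24a 0.94, Fam167a 0.94, Sh3bp5 0.93) and Tnfsf4 (Dph7 0.95, Mettl4 0.93, Tnfrsf10b 0.92) had less similar neighbours.

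Between the 8 genes themselves, Cd40 and Icam1 had the highest r (0.89, 12 libraries), and Icosl and Tnfsf9 the lowest (-0.95). Icosl and Tnfsf9 were mirror images by group, since IFNγ held the 3 highest libraries of the former and the 3 lowest of the latter, and LPS the reverse. The B7 pair Cd80 and Cd86 had r = 0.45. Cd40 and Cd86 were lowest in replicate 1 in 4 of 4 groups, and so were the summed myeloid, NK cell and CD4 T cell markers and the summed receptor and other ligand lists, while the dendritic cell sum was lowest there in 3 of 4 groups. The summed CD40 signalling list was highest in replicate 1 in 4 of 4 groups, as was Tnfsf4, and the B cell sum in 3 of 4. The part of these levels in the values of the 8 genes was not tested.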
